A study of Homo sapiens with 33 samples.

Results

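Transcripts of 10 genes of the Notch pathway were followed in cells that were differentiated towards the gonad with and without FOXL2. The genes are the receptors NOTCH1, NOTCH2 and NOTCH3, the ligand genes JAG1, DLL1 and DLL3, and the target genes HES1, HEY1, HEY2 and HEYL. The rule took them by name and used no measured value, though it was set with earlier results of these data known, and all 10 were found among the 58735 genes of the count table. The cells were H9 human embryonic stem cells, an established line, carrying DDdCas9VP192, a drug-stabilised CRISPR activator directed at FOXL2, a forkhead transcription factor of the developing ovary. A single clone was used and every group carried the construct. In the induced groups (IND), doxycycline and trimethoprim were given from day 4 of the protocol to switch the activator on, and the control groups (CTRL) received neither drug. Cells were taken at day 4, before induction, and from CTRL and IND cultures every second day from day 6 to day 14, which gives 11 groups of 3 libraries and 33 libraries in all. The 3 libraries of a group were technical replicates, so p-values here measure the spread between technical replicates of a single differentiation and not between independent differentiations. No group received the drugs without the activator, so drug effects and FOXL2 effects cannot be told apart.

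In the Notch pathway a ligand on one cell binds a receptor on its neighbour, the receptor is cut by ADAM proteases and gamma-secretase, and its freed intracellular domain joins RBPJ and a Mastermind coactivator to switch on target genes. The HES and HEY genes are the classical targets and encode basic helix-loop-helix repressors. DLL3 differs from the other ligands in that it acts mainly within the cell that makes it and dampens Notch signalling there. In the mammalian gonad, Notch signalling is known for holding back the differentiation of steroid-producing cells and, in the ovary, for signals between germ cells and pregranulosa cells during follicle assembly.

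The libraries held between 23940837 and 51912815 counted fragments (median 41420455), and every member had at least 104 counts in every library and passed the filter on low counts in all comparisons. FOXL2 lay between 147 and 577 CPM (counts relative to the TMM-scaled library size) in the 15 IND libraries and at or below 0.388 CPM in the other 18. The GATA4, WT1, LHX9, EMX2, NR5A1 and UPK3B list of gonadal coelomic epithelium summed to 49.96 to 61.6 CPM in the day 4 libraries. By day 14 it summed to 453 to 576 CPM in the controls and 332 to 379 CPM in the induced libraries. GATA4 held most of these sums, with means of 54.9 CPM at day 4 and 322 CPM at CTRL day 14. WT1, UPK3B and LHX9 were at 144, 51.6 and 7.19 CPM at CTRL day 14. EMX2 and NR5A1 stayed low, at 0.615 and 0.0687 CPM at day 4 and 0.743 and 0.286 CPM at CTRL day 14. IND day 10 replicate 2 stood apart, with 19254 genes detected against 23358 to 29002 in the other 32 libraries. Its mean correlation with its own group was 0.920 against 0.954 to 0.989. It had 1995 CPM over 6 pluripotency genes against 407 and 487 CPM in the other 2 libraries of its group. LIN28A held most of these sums, with an IND day 10 mean of 811 CPM. The means of DPPA4, SOX2, ZFP42, POU5F1 and NANOG were 74.8, 53.9, 22.5, 0.502 and 0.182 CPM. IND day 12 replicate 1 stood apart by transcript length. Relative to the other 2 libraries of its group, its 2562 genes with at least 8000 exonic bases were lower by a median log2 difference of -0.38, and its 1739 genes with at most 3000 exonic bases were higher by 0.43. Results of the 10 members that include either library are given with and without it where it changed a call. The pathway and marker lists were not recounted without these libraries, so whether their day 10 and day 12 calls depend on them was not tested.

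Per length, HES1 and the receptors NOTCH3 and NOTCH2 were the most abundant of the 10 transcripts, and HEY2, HEYL and HEY1 the least. In FPKM (fragments scaled by exonic length and library size), the unit in which levels of different genes can be compared, the median over the 33 libraries was 31.3 for HES1, 26.7 for NOTCH3, 19.6 for NOTCH2, 9.98 for NOTCH1, 9.09 for DLL1 and 8.22 for DLL3. JAG1 had a median of 4.52 FPKM, HEY1 of 3.48, HEYL of 3.22 and HEY2 of 2.05 FPKM. The members differed in how far they moved over the series. NOTCH3 lay between 155 and 468 CPM and HES1 between 40.4 and 108 CPM, while DLL3 spanned 6.11 to 60.4 CPM and DLL1 14.3 to 97.0 CPM. Without IND day 10 replicate 2 and IND day 12 replicate 1, which held both NOTCH3 extremes and the highest HES1 and DLL1 values, NOTCH3 lay between 179 and 348 CPM, HES1 reached 93.4 CPM and DLL1 reached 69.1 CPM.

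**Figure D1:**
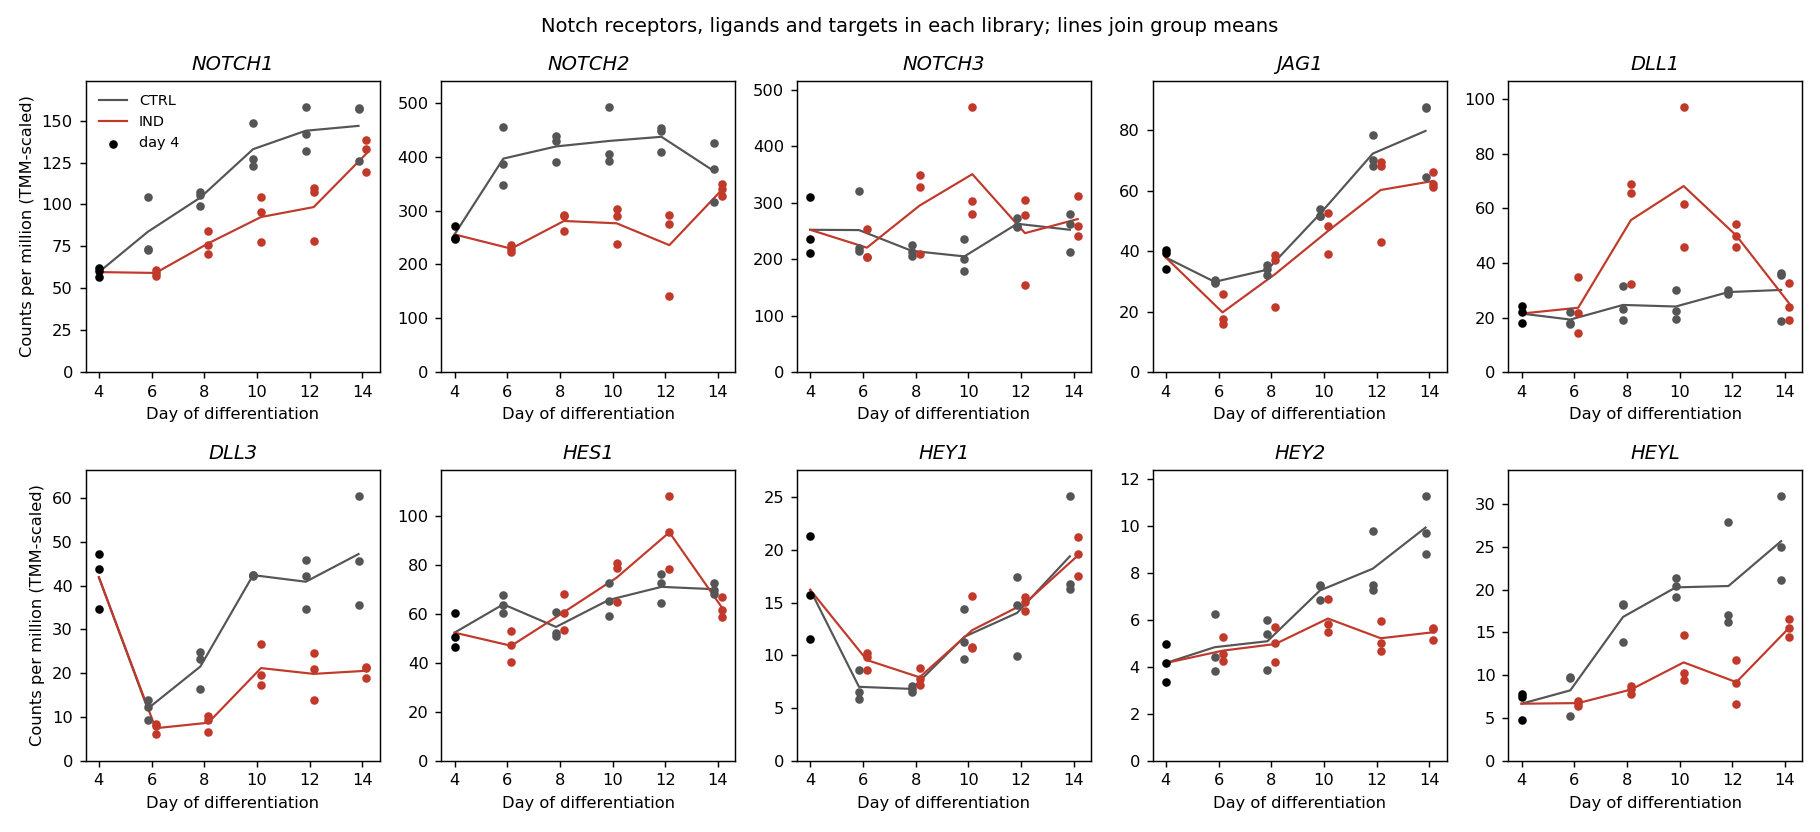
Level in CPM of each of the 10 genes against the day of differentiation, with 1 point per library, black for day 4, grey for CTRL and red for IND, and lines through the means of 3 libraries. The red points of DLL3 lie below the grey ones on every day, and those of DLL1 lie above them at days 8, 10 and 12.

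The control cultures show how the 10 transcripts moved during differentiation alone. Against day 4, 4 members passed an adjusted p of 0.05 at day 6 (edgeR quasi-likelihood test, Benjamini-Hochberg over all genes tested), where 21.6% of all genes did, and 2 rose (11% of all genes) and 2 fell (10.6%). At day 8, 5 passed (37.1% of all genes), of which 3 rose (18.1%) and 2 fell (18.9%). From day 10 on, every call was upward, with 6 members at day 10 (45.1% of all genes called, 23.1% upward), 7 at day 12 (48.1% and 24.4%) and 6 at day 14 (47.6% and 24.6%). The median log2 fold change of the 10 genes against day 4 was 0.10, 0.13, 0.41, 0.61 and 0.52 from day 6 to day 14. These 5 comparisons share the day 4 libraries, so they are not independent of each other.

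Of the receptors, NOTCH1 (chr9:136494433-136545786, minus strand) and NOTCH2 (chr1:119911553-120069626, minus strand) rose on all 5 days, and NOTCH3 (chr19:15159038-15200981, minus strand) passed on none. NOTCH1 was at 61.9, 60.1 and 56.9 CPM in the day 4 libraries and at 158, 157 and 126 CPM in those of CTRL day 14. The 2 groups did not overlap, and the log2 fold change grew from 0.48 ± 0.15 (SE) at day 6 (adjusted p = 0.043) to 1.17 ± 0.10 at day 10 and 1.30 ± 0.12 at day 14 (adjusted p = 2.7e-05). The day 6 call was lost in the absence of each of CTRL replicates 1, 2 and 3 and of day 4 replicates 1 and 2, with adjusted p between 0.0516 and 0.119. NOTCH2 reached its level sooner: 249, 270.4 and 247 CPM at day 4 became 456, 347 and 387 CPM at CTRL day 6, all higher, with a log2 fold change of 0.63 ± 0.13 (adjusted p = 0.0053). It was then 419 ± 25.8 CPM at day 8, 429 ± 54.3 CPM at day 10, 437 ± 24.3 CPM at day 12 and 373 ± 54.3 CPM at day 14 (mean and SD, n = 3), and these 4 groups overlapped each other and CTRL day 6. NOTCH3 was at 252 ± 51.2 CPM at day 4 and 252 ± 34.5 CPM at CTRL day 14, with log2 fold changes between -0.28 and 0.06. NOTCH2NLA, a partial copy of NOTCH2 (0.0863 to 2.49 CPM), and NBPF26 (7.73 to 17.6 CPM) were looked up by name as genes that might share fragments with NOTCH2. Their sequences were not compared with it. Some fragments may have been split between them and NOTCH2, and NOTCH2 values carry that uncertainty.

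The ligands went separate ways in the control cultures. JAG1 (chr20:10637684-10673999, minus strand), the Jagged ligand of the set, was 37.9 ± 3.42 CPM at day 4, 29.9 ± 0.444 CPM at day 6 and 79.8 ± 13.2 CPM at day 14. It rose at day 10 (log2 fold change 0.48 ± 0.10, adjusted p = 0.0047), day 12 (0.93 ± 0.11, adjusted p = 0.00021) and day 14 (1.08 ± 0.15, adjusted p = 0.00028). DLL3 (chr19:39498895-39508481, plus strand) fell and came back. It was at 47.2, 34.6 and 43.9 CPM at day 4, 12.4, 9.41 and 13.9 CPM at CTRL day 6, 24.9, 16.4 and 23.3 CPM at day 8 and 42.2, 42.5 and 42.5 CPM at day 10. All day 6 and day 8 libraries lay below all day 4 libraries, and those of day 10 lay within the day 4 range. The log2 fold changes were -1.82 ± 0.18 at day 6 (adjusted p = 4.8e-05), -0.96 ± 0.18 at day 8 (adjusted p = 0.0033) and 0.03 ± 0.13 at day 10 (adjusted p = 0.844). Over the same days the presomitic mesoderm list (TBXT, TBX6, MSGN1, MESP1, MESP2 and RIPPLY2) went from 17.9 to 26.8 CPM in sum at day 4 to 3.34 to 5.95 CPM at CTRL day 6 and 4.11 to 4.22 CPM at day 10. Of its 5 tested genes, 5 fell at day 6, where 10.6% of all genes fell. The part of this list in the DLL3 values was not tested. DLL1 (chr6:170282206-170306565, minus strand), a Delta ligand, moved little, from 21.5 ± 3.09 CPM at day 4 to 29.3 ± 0.782 CPM at day 12, where it passed (log2 fold change 0.45 ± 0.13, adjusted p = 0.0177). That call was lost without CTRL day 12 replicate 2 (adjusted p = 0.0576) or replicate 3 (adjusted p = 0.0684).

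Among the targets, HEYL (chr1:39624153-39639945, minus strand) had the largest log2 fold change of the 10 genes at days 8, 10, 12 and 14 in the control cultures. Its levels were 7.78, 7.45 and 4.78 CPM at day 4, 18.3, 13.8 and 18.3 CPM at CTRL day 8 and 24.9, 30.9 and 21.2 CPM at CTRL day 14. Every library from day 8 on lay above day 4, with log2 fold changes of 1.33 ± 0.22 at day 8 (adjusted p = 0.0016), 1.62 ± 0.19 at day 10, 1.62 ± 0.27 at day 12 and 1.95 ± 0.23 at day 14 (adjusted p = 0.00013). HEY2 (chr6:125747664-125761269, plus strand), best known from the heart and arteries, followed later, from 4.17 ± 0.809 CPM to 9.94 ± 1.25 CPM. It passed at day 10 (log2 fold change 0.82 ± 0.20, adjusted p = 0.0084), day 12 (0.97 ± 0.22) and day 14 (1.26 ± 0.22, adjusted p = 0.0012). HES1 (chr3:194136145-194138732, plus strand), a target whose protein represses its own gene, rose by less, with log2 fold changes of 0.35 ± 0.12 at day 10, 0.44 ± 0.12 at day 12 and 0.43 ± 0.12 at day 14 (adjusted p between 0.0144 and 0.048), and its day 10 libraries overlapped those of day 4. HEY1 took the path of DLL3: 15.7, 11.6 and 21.3 CPM at day 4, 8.64, 6.54 and 5.86 CPM at CTRL day 6, 6.86, 7.10 and 6.50 CPM at day 8 and 16.3, 25.1 and 16.8 CPM at day 14. The day 6 and day 8 libraries lay below those of day 4 (log2 fold changes -1.21 ± 0.24 and -1.25 ± 0.22, adjusted p = 0.0042 and 0.0021), and from day 10 on the groups overlapped. The HES1 calls were lost without CTRL replicate 1, 2 or 3 or day 4 replicate 1 or 2 at day 10 (adjusted p up to 0.177), without CTRL replicate 2 or 3 or day 4 replicate 1 at day 12 (up to 0.0653), and without CTRL replicate 2 or day 4 replicate 1 at day 14 (up to 0.0675).

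**Figure D2:**
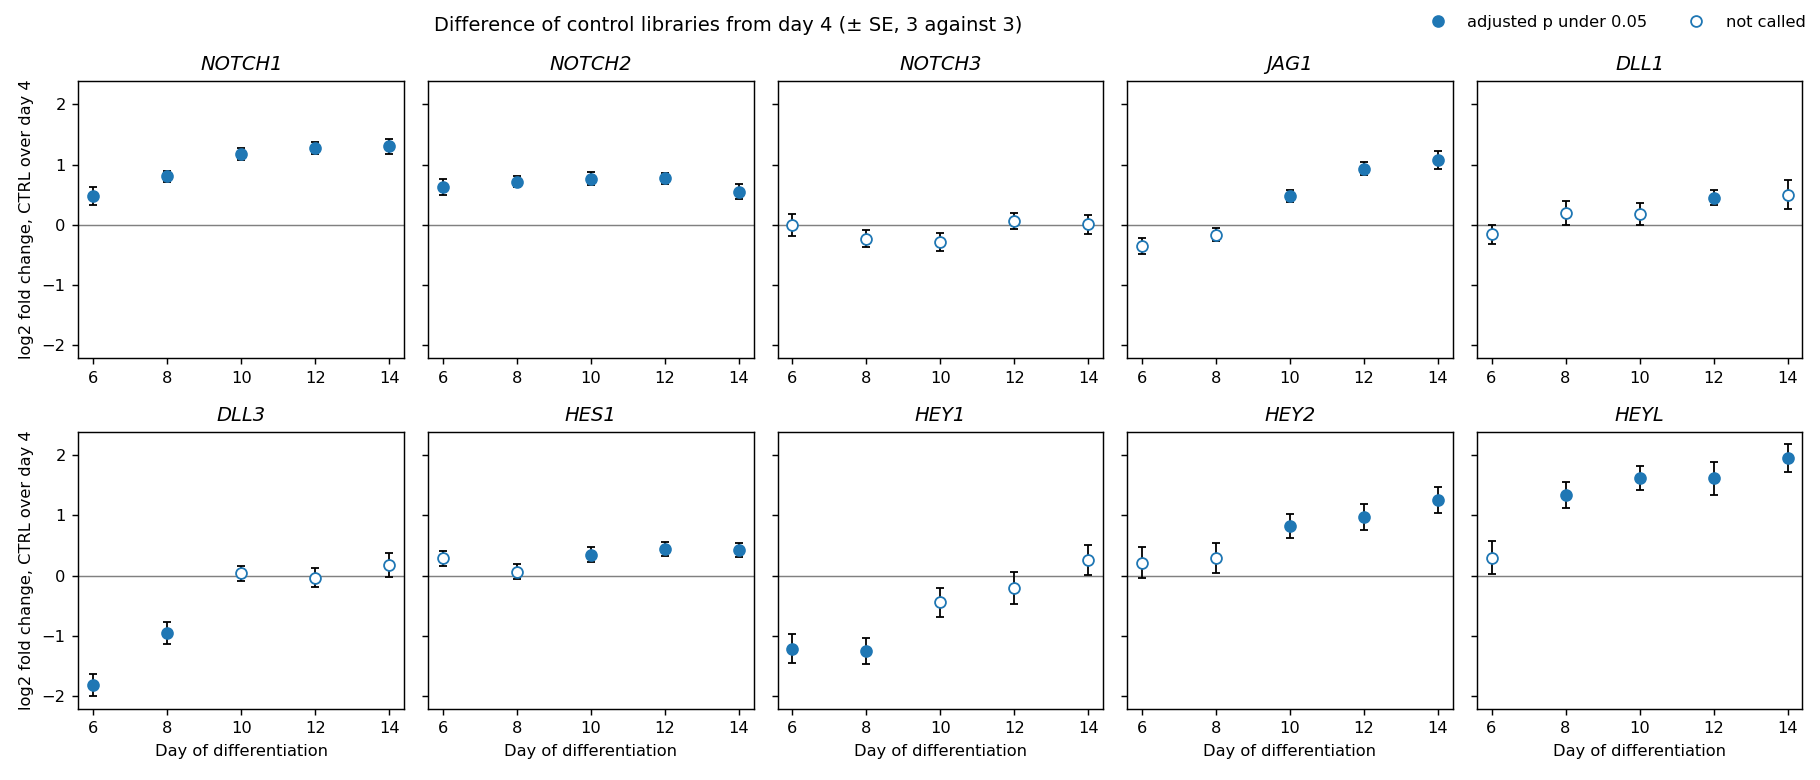
Log2 fold change of CTRL libraries over the day 4 libraries at each day for the 10 genes, with bars of 1 standard error (3 libraries against 3) and filled points where the adjusted p was under 0.05. NOTCH1 climbs from 0.48 to 1.30, HEYL reaches 1.95, and DLL3 and HEY1 start below 0 and return.

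RBPJ is the DNA-binding partner of the cut receptors, and matches to its core sequence are shown because HES1, HEY2 and HEYL are classical targets of the pathway. Whether these genes follow Notch signalling in these cells was not tested. RefSeq promoter entries (GRCh38.p14, 250 bases before to 50 after each start) were found for 7 of the 10 members, namely the 3 receptors, JAG1, HES1, HEY2 and HEYL. The RBPJ core TGGGAA, searched on both strands, occurred 2 times in each of HES1, HEY2 and HEYL and 0 times in the other 4, and 24% of all 35116 promoters of this length held it. In HES1 the matches began 84 and 70 bases before the start, both in the direction of transcription. In HEY2 they began 213 and 3 bases before it, and in HEYL 178 and 99 bases before it, with the upstream match of each on the opposite strand, where it reads TTCCCA. The 250 bases before the HES1 start (chr3:194135898-194136147, plus strand) hold both matches, and 30 bases are given around each match of HEY2 and HEYL, with the match in capitals.
HES1: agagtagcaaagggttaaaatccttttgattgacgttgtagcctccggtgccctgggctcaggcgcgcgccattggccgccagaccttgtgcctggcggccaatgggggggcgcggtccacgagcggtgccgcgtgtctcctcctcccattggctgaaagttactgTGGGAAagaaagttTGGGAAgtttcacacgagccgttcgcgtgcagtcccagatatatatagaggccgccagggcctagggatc
HEY2 upstream match (chr6:125749407-125749436, plus strand): tccgcggccgcgTTCCCAcgcctcggctgg
HEY2 match at the start (chr6:125749617-125749646, plus strand): agagttgcggcgTGGGAAagagccgctagg
HEYL upstream match (chr1:39639804-39639833, minus strand): ccgcctagggccTTCCCAcggctcggcggc
HEYL downstream match (chr1:39639725-39639754, minus strand): aggaaagggcccTGGGAAagggcggtggcg
By GENCODE 29, the annotation whose exonic lengths equal those of the count table for the members, the HES1 stretch lies before the gene except for its last 3 bases. The first HEY2 window lies within the gene span but outside any untranslated exon. The other 3 windows each lie in untranslated exon sequence of an annotated transcript of the gene. The E box CACGTG, a HES and HEY binding sequence (7.26% of all promoters), and the forkhead sequence TGTTTAC (3.42%) were absent from all 7 windows. A match is a run of letters and not a measured binding site.

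Under FOXL2 activation, NOTCH2, NOTCH1, DLL3, HEYL and HEY2 fell and DLL1 rose, each on some of the 5 days. HES1 changed direction with the day. It was lower at day 6, and its log2 fold changes at days 8, 10 and 12 were 0.16, 0.19 and 0.40, none of which passed. The question asked of each day is which of the 10 genes differed between IND and CTRL libraries of that day. At day 6, 2 members passed (3.66% of all genes did), both lower (2.37%), and at day 8, 4 passed (14.2% of all genes), all lower (6.67%). At day 10, none passed by edgeR (2.03% of all genes), although 6 had an unadjusted p under 0.05. DESeq2 called 6 members there and 1793 of 21634 genes, and limma-trend on log2(FPKM + 1) called 1 member and 390 of 19858 genes. At day 12, 3 passed (5.42%), 2 of them lower (3.04%) and 1 higher (2.38%), and 3 passed at day 14 (8.43%), all lower (5.22%). Without IND day 10 replicate 2, 6 members passed at day 10, as did 3768 of 20650 genes. The day 12 count was 5 without IND replicate 1 (1979 of 20499 genes). It was 1 without CTRL replicate 1, 2 or 3 (508 of 20501, 496 of 20573 and 417 of 20588 genes). The day 6 count was 4 without CTRL replicate 2 (779 of 19844 genes) and 1 without CTRL replicate 1 (402 of 19810). It was also 1 without IND replicate 1 (915 of 19715) or 2 (348 of 19572). Of the 12 calls over the 5 days, 11 were lower in IND and 1, DLL1 at day 12, was higher. Without regard to the test, the IND and CTRL libraries did not overlap for 5, 6, 6, 7 and 4 members from the first of the 5 days to the last, against 19.1%, 33.1%, 30.9%, 30.3% and 26.7% of all genes. The median log2 fold change of the 10 genes over these days was -0.35, -0.04, -0.21, -0.40 and -0.21, and that of all genes tested lay between -0.01 and 0.02.

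NOTCH2 had the smallest adjusted p of the 10 genes at day 6. On that day it stood at 236, 223 and 229 CPM in the IND libraries and 456, 347 and 387 CPM in the CTRL libraries. The induced libraries lay below every control library and below every day 4 library. The log2 fold change was -0.77 ± 0.11 (adjusted p = 0.00039), and at day 8 it was -0.57 ± 0.08 (adjusted p = 0.0007), from 291, 289.7 and 261 CPM in the IND libraries and 429, 389.9 and 439 CPM in the CTRL libraries. At day 10 the levels were 302, 237 and 289.7 CPM in the IND libraries and 491, 405 and 391 CPM in the CTRL libraries, and at day 12 they were 141, 275 and 291 CPM in the IND libraries and 409, 453 and 449 CPM in the CTRL libraries. The groups did not overlap on either day, but the spread within IND was wide and the test was not passed (log2 fold changes -0.63 ± 0.14 and -0.89 ± 0.24, adjusted p = 0.0945 and 0.0738). NOTCH2 passed without IND day 10 replicate 2 (log2 fold change -0.54, adjusted p = 0.0016) and without IND day 12 replicate 1 (-0.63, adjusted p = 0.00072). By day 14 the induced libraries, at 326, 349.7 and 341 CPM, lay within the control range of 377, 317 and 425 CPM (log2 fold change -0.13 ± 0.11, adjusted p = 0.526).

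NOTCH1 ran below its controls over the same days. It was at 75.8, 84.1 and 70.5 CPM in the IND libraries and 107, 99.3 and 106 CPM in the CTRL libraries at day 8, without overlap (log2 fold change -0.43 ± 0.08, adjusted p = 0.005). The groups were also apart at day 6 (-0.48 ± 0.13, adjusted p = 0.0535), day 10 (-0.52 ± 0.14, adjusted p = 0.151) and day 12 (-0.55 ± 0.15, adjusted p = 0.077), none of which passed. As with NOTCH2, it passed at day 10 without IND replicate 2 (adjusted p = 0.0043) and at day 12 without IND replicate 1 (adjusted p = 0.0141), and at day 6 it passed without CTRL replicate 2 (adjusted p = 0.0237) or replicate 3 (adjusted p = 0.0318). At day 14 the IND libraries, at 133, 139 and 119.7 CPM, overlapped the CTRL libraries, at 158, 157 and 126 CPM (log2 fold change -0.17 ± 0.10, adjusted p = 0.375). NOTCH1, NOTCH2, NOTCH3 and JAG1 have 9298 to 16807 exonic bases and HES1 has 2062. In IND day 12 replicate 1, the library with low long genes, NOTCH1, NOTCH2, NOTCH3 and JAG1 were each the lowest of their group and HES1 the highest. Over all genes with at least 8000 exonic bases the median log2 fold change of IND over CTRL ran -0.01, -0.03, -0.10, -0.16 and 0.04 from day 6 to day 14, and the part of transcript length in the receptor values was not tested.

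NOTCH3, the receptor known from pericytes and smooth muscle, did not follow the other receptors and passed on no day. At day 8 it was at 328, 348 and 208 CPM in the IND libraries and 206, 225 and 213 CPM in the CTRL libraries, which overlapped (log2 fold change 0.47 ± 0.19, adjusted p = 0.16). At day 10 it was at 279, 468 and 303 CPM in the IND libraries and 236, 179 and 199 CPM in the CTRL libraries. The induced libraries were all higher there, with IND replicate 2 the highest by a wide margin (log2 fold change 0.78 ± 0.23, adjusted p = 0.167). Without that replicate the fold change was 0.50 with an adjusted p of 0.0065, and at day 8 without IND replicate 3 it was 0.67 (adjusted p = 3.8e-05). At days 6, 12 and 14 its log2 fold changes lay between -0.17 and 0.11.

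**Figure D3:**
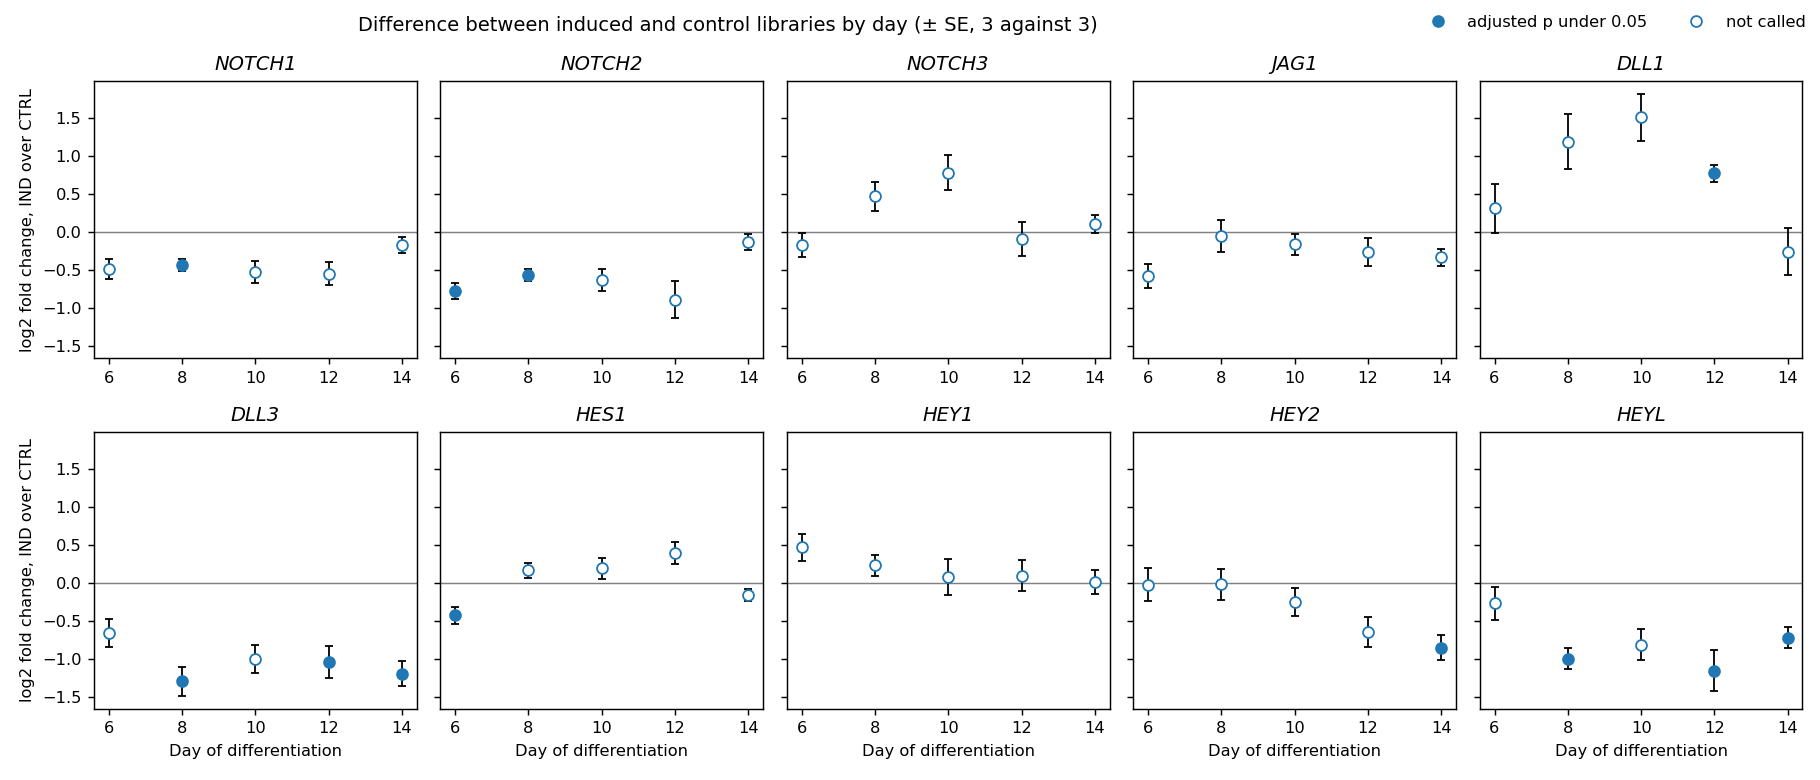
Log2 fold change of IND over CTRL at each day for the 10 genes, with bars of 1 standard error (3 libraries against 3) and filled points where the adjusted p was under 0.05. The points of DLL3 and HEYL lie between -0.72 and -1.30 from day 8 on, and those of DLL1 go up to 1.51 at day 10 and down to -0.25 at day 14.

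The Delta ligands DLL1 and DLL3 moved in opposite directions under induction. DLL3, the cell-internal ligand, was lower in IND on all 5 days without overlap. It was at 6.60, 9.28 and 10.2 CPM in the IND libraries and 24.9, 16.4 and 23.3 CPM in the CTRL libraries at day 8 (log2 fold change -1.30 ± 0.20, adjusted p = 0.0022). At day 12 it was at 24.7, 13.9 and 20.9 CPM in the IND libraries and 45.9, 34.6 and 42.2 CPM in the CTRL libraries (-1.04 ± 0.21, adjusted p = 0.0254), and at day 14 at 21.3, 21.4 and 18.996 CPM in the IND libraries and 45.7, 60.4 and 35.5 CPM in the CTRL libraries (-1.20 ± 0.17, adjusted p = 0.0016). Each of these 3 days passed, with IND at 0.407, 0.485 and 0.437 times CTRL. At day 6 (-0.66 ± 0.18, adjusted p = 0.0579) and day 10 (-0.998 ± 0.18, adjusted p = 0.0536) it was just short of the threshold. It passed at day 10 without IND replicate 2 (-1.20, adjusted p = 6.6e-07) and at day 6 without CTRL replicate 2 (adjusted p = 0.0195). The day 12 call was lost without IND replicate 3 or CTRL replicate 1, 2 or 3, with adjusted p between 0.0527 and 0.103. The rebound of DLL3 seen in the controls between days 8 and 10 was also present in the induced group means, from 8.69 ± 1.87 CPM to 21.2 ± 4.81 CPM.

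DLL1, the Delta ligand that activates receptors on neighbouring cells, was raised in the middle of the course. At day 12 it was at 49.8, 54.3 and 46.02 CPM in the IND libraries and 28.5, 29.4 and 30.1 CPM in the CTRL libraries. All induced libraries were higher (log2 fold change 0.77 ± 0.12, adjusted p = 0.0073); with 1 fit over all 33 libraries the adjusted p was 0.134. The differences at day 8 and day 10 were larger but noisier. At day 8 it was at 69.1, 65.6 and 32.5 CPM in the IND libraries and 23.1, 31.8 and 19.03 CPM in the CTRL libraries (log2 fold change 1.19 ± 0.36, adjusted p = 0.1), and at day 10 at 45.9, 97.02 and 61.8 CPM in the IND libraries and 22.5, 19.6 and 30.04 CPM in the CTRL libraries (1.51 ± 0.31, adjusted p = 0.072). The induced libraries were above all controls on both days, and neither day passed. It passed at day 8 without IND replicate 3 (adjusted p = 0.0073) and at day 10 without IND replicate 2 (1.16, adjusted p = 0.0224). At day 14 the groups overlapped, at 23.8, 32.8 and 19.1 CPM in IND and 35.6, 36.2 and 18.6 CPM in CTRL. The gene span of DLL1 overlaps that of FAM120B on the other strand without shared exonic bases, and FAM120B had log2 fold changes of IND over CTRL between -0.04 and 0.18, none of which passed.

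JAG1 passed on no day. Its nearest approach was day 6, with 15.8, 17.6 and 25.9 CPM in the IND libraries and 30.4, 29.5 and 29.7 CPM in the CTRL libraries. The induced libraries were all lower (log2 fold change -0.58 ± 0.16, adjusted p = 0.0589), and the test was passed without IND replicate 3 (-0.82, adjusted p = 0.0012). From day 8 to day 14 the groups overlapped, with log2 fold changes between -0.33 and -0.05, and day 14 passed without CTRL replicate 3 (adjusted p = 0.003).

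HEYL was the target most often lower under induction. At day 8 it was at 7.83, 8.37 and 8.77 CPM in the IND libraries and 18.3, 13.8 and 18.3 CPM in the CTRL libraries. At day 12 it was at 6.61, 9.12 and 11.8 CPM in the IND libraries and 27.96, 16.2 and 17.1 CPM in the CTRL libraries, and at day 14 at 16.6, 14.5 and 15.5 CPM in the IND libraries and 24.9, 30.9 and 21.2 CPM in the CTRL libraries. No induced library reached a control library on any of these days, nor at day 10. The log2 fold changes were -1.002 ± 0.14 at day 8 (adjusted p = 0.00077), -0.81 ± 0.20 at day 10 (adjusted p = 0.118), -1.16 ± 0.27 at day 12 (adjusted p = 0.0444) and -0.72 ± 0.14 at day 14 (adjusted p = 0.0047). The day 12 call was lost without IND replicate 1 or 2 or CTRL replicate 1, 2 or 3 (adjusted p between 0.0718 and 0.146), and day 10 passed without IND replicate 2 (-1.04, adjusted p = 1.6e-05). The induced cultures still gained HEYL over time, from 6.74 ± 0.295 CPM at day 6 to 15.5 ± 1.06 CPM at day 14.

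HEY2 separated late. It was at 5.15, 5.67 and 5.62 CPM in the IND libraries and 11.3, 9.72 and 8.81 CPM in the CTRL libraries at day 14, without overlap (log2 fold change -0.86 ± 0.16, adjusted p = 0.0046). At day 12 the groups were apart too (-0.65 ± 0.19, adjusted p = 0.0992; -0.75 with an adjusted p of 0.0305 without IND replicate 1). At days 6, 8 and 10 they overlapped, with log2 fold changes between -0.25 and -0.02. The induced group means were 4.69 ± 0.533 CPM at day 6, 4.98 ± 0.737 CPM at day 8, 6.06 ± 0.730 CPM at day 10, 5.22 ± 0.663 CPM at day 12 and 5.48 ± 0.288 CPM at day 14, and induced groups of different days were not tested against each other.

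HES1 was lower in IND at days 6 and 14 and higher at day 12. At day 6 it was at 40.4, 47.4 and 53.02 CPM in the IND libraries and 67.8, 60.1 and 63.6 CPM in the CTRL libraries, all lower (log2 fold change -0.43 ± 0.11, adjusted p = 0.0475). At day 12 it was at 108, 93.4 and 78.3 CPM in the IND libraries and 64.3, 72.4 and 76.2 CPM in the CTRL libraries, all higher (0.40 ± 0.14, adjusted p = 0.165). At day 14 it was again lower in each induced library, with 58.9, 66.9 and 61.6 CPM in the IND libraries and 69.5, 72.5 and 68.01 CPM in the CTRL libraries (-0.16 ± 0.08, adjusted p = 0.295). Of these, only the day 6 difference passed, and it was lost without IND replicate 1 or 2 or CTRL replicate 1 or 3 (adjusted p between 0.112 and 0.185). HEY1 passed on no day. Its largest difference was at day 6, with 10.3, 9.82 and 8.59 CPM in the IND libraries and 8.64, 6.54 and 5.86 CPM in the CTRL libraries, which overlapped by 1 library (log2 fold change 0.46 ± 0.18, adjusted p = 0.226). At day 8 it was at 7.75, 8.78 and 7.22 CPM in the IND libraries and 6.86, 7.10 and 6.50 CPM in the CTRL libraries, without overlap (0.23 ± 0.14, adjusted p = 0.331), and from day 10 on its log2 fold changes lay between 0.01 and 0.09.

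Whether the induction effect differed between days was tested by the 4 interaction terms of day and induction over the 30 libraries after day 4. HES1 passed (adjusted p = 0.0296), as did 2.38% of the 22442 genes tested. DLL1 had an adjusted p of 0.116, HEY2 of 0.247, NOTCH3 of 0.280, NOTCH2 of 0.306 and HEYL of 0.465, and the others lay between 0.634 and 0.790. The HES1 value was 0.0150 without IND day 10 replicate 2 and IND day 12 replicate 1. It was 0.665, 0.240 and 0.118 when replicate 1, 2 or 3 was left out of every group. NOTCH2 passed without the 2 libraries (adjusted p = 0.0249). With DESeq2, DLL1 (adjusted p = 0.0121) and HEY2 (0.0475) passed as well. Without the filter on low counts, DLL1 (adjusted p = 1.9e-13), NOTCH3 (3e-05) and NOTCH2 (0.0112) passed beside HES1. In that fit 2360 of 42767 genes passed, and all 10 members had also passed the filter. DLL1 also passed with replicate 3 left out of every group (0.0439). It passed in 3 of the 11 alternatives, with adjusted p up to 0.682.

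The make-up of the receptor and ligand pools differed between IND and CTRL, towards NOTCH3 among the receptors and DLL1 among the ligands. NOTCH3 made up 36.2% ± 1.65 (SD, n = 3) of the summed FPKM of the 3 receptors in CTRL at day 10 and 58.7% ± 9.72 in IND. In IND day 10 replicate 2, which stood apart, it was 69.8%, and in the other 2 IND libraries of that day 51.5 and 54.9%. The NOTCH3 share was higher in every IND library at days 6, 8, 10 and 12, and at day 14 it was 46.7% ± 2.38 against 42.4% ± 4.47 with overlap. The NOTCH2 share moved the other way, from 42.5% ± 1.06 in CTRL to 26.7% ± 6.11 in IND at day 10. There it was 19.8% in IND replicate 2 and 31.1 and 29.4% in the other 2 IND libraries. At day 12 without the long-gene-poor library it was 27.6 and 30.2% in the other 2 IND libraries against 36.3, 40.3 and 38.4% in CTRL. Of the 3 ligands, DLL1 made up 76.7, 72.5 and 61.8% in the IND libraries and 34.9, 49.8 and 32.3% in the CTRL libraries at day 8. At day 10 its shares were 54.95, 65.5 and 61.8% and 24.3, 21.8 and 29.7%. DLL1 held the largest share of ligand FPKM in every IND library from day 6 to day 12 and in every CTRL library at day 6, and DLL3 held it in every CTRL library from day 10 to day 14. At CTRL day 8 the order differed between libraries, with 42.3% ± 9.29 for DLL3 and 39.02% ± 9.46 for DLL1. The IND and CTRL shares of DLL1 did not overlap on any day, and at day 14 they were 34.4% ± 5.08 and 25.6% ± 3.55. A larger share was not always a higher level. Mean NOTCH3 was higher in IND at days 8, 10 and 14, but lower at day 6 (220 against 251 CPM) and day 12 (246 against 263 CPM). Mean DLL1 was higher in IND on every day but day 14 (25.2 against 30.1 CPM). The shares leave out NOTCH4, JAG2 and DLL4, and also DLK1, DLK2 and DNER. DLK1 was at 94.9, 106 and 85.6 CPM in the IND libraries and 263, 204 and 294 CPM in the CTRL libraries at day 8. The shares are descriptions of 3 libraries a group and were not tested.

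**Figure D4:**
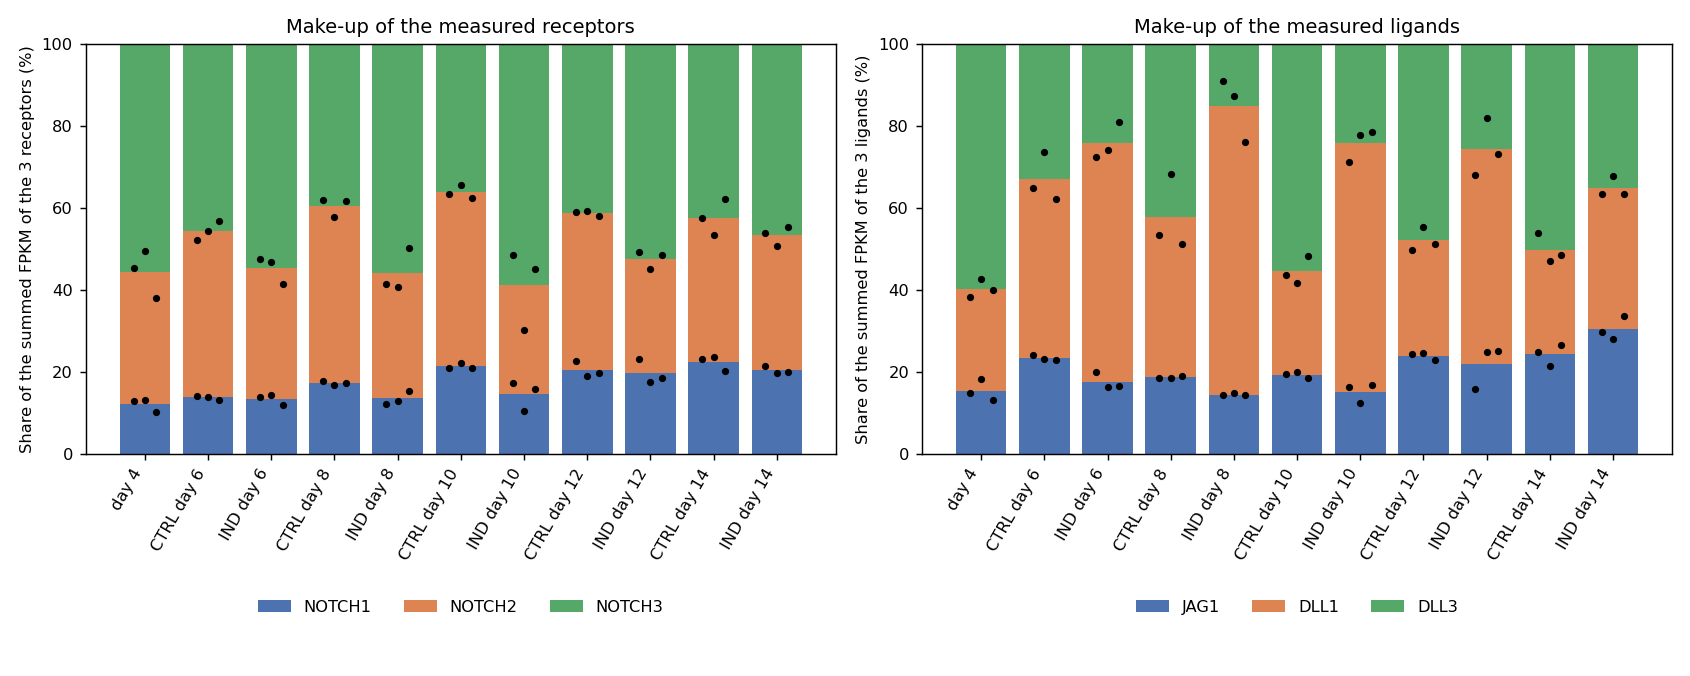
Share of the summed FPKM of the 3 receptors (left) and of the 3 ligands (right) in each of the 11 groups, as stacked mean percentages of 3 libraries, with a black point for each library at each boundary. The NOTCH3 segment is 58.7% in IND and 36.2% in CTRL at day 10, and the DLL1 segment is 60.8% in IND and 25.3% in CTRL.

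Among the 4 targets, HES1 held most of the summed FPKM in every group, between 67.3% and 83.4% as group means. HEYL held 13.2% ± 2.74 in CTRL and 6.37% ± 0.848 in IND at day 8, and its IND and CTRL shares stayed apart through day 14, when they were 9.998% ± 1.02 and 13.8% ± 1.56.

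Genes that act beside the members were counted by role, and most did not pass the test. Of all genes tested, 1.29%, 7.49%, 0.856%, 2.38% and 3.21% rose under induction and 2.37%, 6.67%, 1.18%, 3.04% and 5.22% fell, in the order of the 5 days. Of the 6 other receptors and ligands, 2 rose and 1 fell at day 8, 1 rose at day 10, 1 rose and 1 fell at day 12, and 1 rose and 1 fell at day 14. NOTCH4, a receptor typical of endothelium, was the riser on all 4 of these days: at day 10 it was at 9.54, 9.88 and 7.82 CPM in IND and 2.73, 2.81 and 2.55 CPM in CTRL. The groups were apart (log2 fold change 1.75 ± 0.20, adjusted p = 0.0124), and its other fold changes were 0.80 ± 0.19 at day 8, 1.29 ± 0.20 at day 12 and 0.91 ± 0.25 at day 14. JAG2, a Jagged ligand, rose at day 8 (0.72 ± 0.14, adjusted p = 0.0066). DLK1, a non-canonical ligand, fell at day 8 (-1.40 ± 0.14, adjusted p = 0.00039), and DNER, a neuronal non-canonical ligand, fell at day 12 (-1.68 ± 0.35, adjusted p = 0.0279) and day 14 (-2.41 ± 0.18, adjusted p = 5.8e-06). The endothelial list (PECAM1, CDH5, KDR, TEK, TIE1, EMCN, VWF, ERG, CLDN5 and ESAM) had 1 of 10 genes lower at day 6 and 6 of 10 higher at day 8 (7.49% of all genes), then 3 higher at day 10 (0.856%), 4 at day 12 (2.38%) and 0 at day 14. It had all 10 markers above 3 counts in every CTRL and IND library and sums at day 8 of 201 to 216 CPM in IND and 148 to 166 CPM in CTRL. At day 10 the sums were 120.4 to 200.02 and 103 to 123 CPM. Its part in the NOTCH4, JAG2 and DLL1 values was not tested, and in bulk libraries fewer cells of a type and less RNA per cell cannot be told apart.

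Of 8 glycosyltransferases that modify the receptors, 2 fell and 1 rose at day 14 (5.22% and 3.21% of all genes), and none passed on an earlier day. The 2 that fell were LFNG and MFNG, fringe enzymes, which set how well a receptor responds to Delta or Jagged ligands. LFNG was at 11.1, 12.7 and 11.9 CPM in IND and 24.6, 24.99 and 16.4 CPM in CTRL at day 14 (log2 fold change -0.88 ± 0.16, adjusted p = 0.0032), and MFNG at 5.05, 4.87 and 3.64 and 13.7, 18.2 and 10.5 CPM (-1.64 ± 0.21, adjusted p = 0.00034). Both were lower in all induced libraries. GXYLT1, which adds xylose to receptor repeats, rose (0.45 ± 0.09, adjusted p = 0.0063), and the other 5, among them the remaining fringe gene RFNG (-0.17 ± 0.10, adjusted p = 0.377), did not pass. Of 9 proteases that cut the receptors, 1 passed on 1 day, the gamma-secretase subunit APH1B at day 8 (0.39 ± 0.09, adjusted p = 0.0145). Of 16 nuclear partners and corepressors, 2 passed at day 8 and 1 at day 14, and none passed at days 6, 10 or 12: the coactivator MAML2 (-0.42 ± 0.08) fell and the deacetylase HDAC1 rose (0.29 ± 0.07) at day 8, and the corepressor CTBP2 fell at day 14 (-0.30 ± 0.08). Of 13 genes of endocytosis and turnover, the ubiquitin ligase DTX3L rose at day 8 (1.45 ± 0.15, adjusted p = 0.00011), day 12 (1.03 ± 0.25) and day 14 (0.79 ± 0.17). DTX2 rose (0.48 ± 0.12) and NEURL1B fell (-0.33 ± 0.09) at day 8, and ITCH rose at day 14 (0.34 ± 0.10).

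Of 10 other HES and related genes, 1 of 8 tested fell at day 6 (2.37% of all genes) and 3 of 9 at day 14 (5.22%). The rest of the list, NRARP among them, were not called on any day. Whether the genes of this list follow Notch signalling in these cells was not tested. HES5, a target of neural progenitors, was at 1.66, 1.46 and 2.15 CPM in IND and 4.72, 3.67 and 10.1 CPM in CTRL at day 6, all lower (-1.79 ± 0.35, adjusted p = 0.0128). At day 14, BHLHE40 (-0.85 ± 0.13, adjusted p = 0.00092), BHLHE41 (-1.34 ± 0.38) and HES2 (-1.87 ± 0.53) fell. The last 2 were at a mean of 1.31 and 0.793 CPM in CTRL, near the lower end of what was tested.

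The neuronal list (NEUROG1, NEUROG2, NEUROD1, ELAVL3, ELAVL4, STMN2, DCX, NHLH1 and INSM1) stands for cells that also use DLL1 and DLL3. Of its tested genes, 2 of 8 fell under induction at day 6 (2.37% of all genes), when its sums overlapped, at 28.6 to 47.1 CPM in IND and 45.6 to 58.002 CPM in CTRL. At day 8, 8 of 9 fell (6.67% of all genes), and each of the 3 later days had 6 of 9 (1.18%, 3.04% and 5.22% of all genes), with none that rose. Its median log2 fold change ran -0.91, -2.07, -2.82, -2.14 and -1.70 from day 6 to day 14. Its sums at day 8 were 61.9 to 72.8 CPM in IND and 108 to 161 CPM in CTRL, and at day 14 they were 306 to 377 and 419 to 759.9 CPM, with 8 or 9 of the 9 markers above 3 counts in each library at day 8. In the control cultures the list summed to 21.7 to 62.5 CPM at day 4. The gonadal coelomic epithelium list fell too, in 4 of 5 tested genes at day 8 and 3 of 5 at day 14, with sums at day 8 of 143 to 182 CPM in IND and 380.3 to 511 CPM in CTRL. The mural list (PDGFRB, RGS5, CSPG4, ACTA2, MYH11, TAGLN, KCNJ8 and ABCC9) stands for cells known for NOTCH3 and HEYL. Under induction 2 of its 7 tested genes were lower at day 6 (2.37% of all genes). At day 8, 2 of 8 were higher (7.49% of all genes) and 1 lower (6.67%), and none was called at day 10. At day 12, 1 was higher (2.38%), and at day 14, 1 was higher (3.21%) and 1 lower (5.22%). The mural sums were lower in IND without overlap on the first 3 of these days, with 442 to 482 CPM in IND and 562 to 659 CPM in CTRL at day 6, 349 to 394 and 434 to 537 CPM at day 8, and 436 to 548 and 586 to 655 CPM at day 10. RGS5 and PDGFRB held the largest parts in CTRL at day 8, with means of 159 and 140 CPM against 90.0 and 105 CPM in IND. Mean TAGLN and CSPG4 were also lower in IND on that day, and mean ACTA2, MYH11, KCNJ8 and ABCC9 were higher. The part of these lists in the DLL3, HEYL and NOTCH3 values was not tested.

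The genes whose pattern came nearest to that of 9 of the members were found by Pearson's r of log2 CPM over the 11 group means, among 13896 genes. The day 4 group and the libraries are shared by all of them, so r is a description. NOTCH1 was most like GIT1 (r = 0.990) and STARD13 (0.987), NOTCH2 like GUSBP1 (0.959) and SLC39A10 (0.953), and NOTCH3 like XKR6 (0.934) and WDR6 (0.854). JAG1 was most like EFNB2 (0.980) and ADGRL1 (0.965), DLL1 like CDC42BPG (0.964) and NSUN7 (0.962), and DLL3 like MYO1D (0.943) and HAGHL (0.937). HEY1 was most like SYT2 (0.957) and SPRY2 (0.944), HEY2 like MIR4697HG (0.977) and KLHL35 (0.966), and HEYL like CDC42SE1 (0.985) and PRDM12 (0.973). No member was among the 2 genes nearest to any of these 9. Between members, r was 0.943 for NOTCH1 and HEYL, 0.845 for NOTCH1 and JAG1 and 0.702 for NOTCH1 and NOTCH2, and it was -0.03 for NOTCH1 and NOTCH3.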

How the data were processed

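Gene expression was measured by RNA sequencing of poly-A RNA in 33 libraries, 11 groups of 3 technical replicates. The authors trimmed reads with fastp 0.23.2, mapped them to GRCh38 with HISAT2 2.0.5 and counted them with featureCounts 1.5.0-p3 from a non-directional library, so strand was not used, and they deposited raw counts per gene. The FPKM values were also deposited by the authors, scaled by exonic length and library size.

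From the deposited counts, pairs of groups were compared with edgeR 4.0.16 (robust quasi-likelihood test, TMM, filterByExpr, 6 libraries a fit, R 4.3.3), with Benjamini-Hochberg adjustment over all genes and a threshold of 0.05. Levels are counts divided by the TMM-scaled library size. Two-sided tests covered IND against CTRL on 5 days, CTRL against day 4 on 5 days, and the interaction of day and induction. As alternatives, DESeq2 1.42.0, limma 3.58.1 on log2(FPKM + 1), RLE scaling, a fit without the low-count filter, one that kept genes with a mean of 50 counts or more, 1 fit over all 33 libraries, a replicate block and fits without each library were run. The edgeR, DESeq2 and limma steps were tested on simulated data. The depth gives a floor of 3 counts between 0.0564 and 0.129 CPM, which covers counting error only.

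The 10 members, the pathway and marker lists and the tests were chosen with earlier results of these data known. All members are named. Other pathway genes are named where the adjusted p was under 0.05 in at least 1 IND comparison with groups that do not overlap, at most 4 in a list, and similar genes are the 2 with the highest correlation over group means. The 2 marked libraries were left out together as an alternative chosen after seeing the data, and the transcript length values were also added then. Promoters are RefSeq entries of GRCh38.p14; sequences for HEY1 and any proteins were not used here. In the pathway and marker lists 2 genes, and the genes most like HES1, are not reported here, and list counts and sums leave them out.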

Additional observations from a re-analysis of the deposited data

Results flagged for a closer look

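The induction effect on HES1 differed between days by the interaction test of edgeR (adjusted p = 0.0296 over 22442 genes). HES1 was lower in each IND library than in each CTRL library at days 6 and 14 (log2 fold changes -0.43 and -0.16) and higher in each at day 12 (0.40), with 30 libraries in the test. The IND library of day 12 with the highest HES1 (108 CPM) was the library whose long genes were low and short genes high, and HES1 has 2062 exonic bases. Without that library and IND day 10 replicate 2 the adjusted p was 0.0150, and leaving replicate 1, 2 or 3 out of every group gave 0.665, 0.240 and 0.118.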

How the results depend on the processing

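Of 1410 values of single members under an alternative, 1298 stayed on their side of the threshold, 43 calls were lost and 69 were gained, and 0 reversed. Counts of members called moved by more than 1.5 times as follows, with the genes called of all genes tested in brackets. At day 6 (2 called, IND against CTRL), DESeq2 (1003 of 19684) and no filter (1209 of 34501) each gave 5. A mean of at least 50 counts (616 of 14733) and limma-trend (359 of 19133) each gave 1. At day 10 (0 called), DESeq2 (1793 of 21634) and 1 fit over all libraries (3325 of 22613) each gave 6. No filter (507 of 35767) gave 2 there and limma-trend (390 of 19858) 1. At day 12 (3 called), DESeq2 (1957 of 22434) gave 6, and no filter (1878 of 35883) and 1 fit over all libraries (1556 of 22613) 5 each. For the interaction (1 called), DESeq2 (1272 of 21598) gave 3, no filter (2360 of 42767) 4 and leaving out both marked libraries (1229 of 23072) 2. The causes were not tested. With 1 library left out, the counts ranged from 1 to 4 at day 6, 4 to 6 at day 8, 0 to 6 at day 10, 1 to 5 at day 12 and 3 to 4 at day 14 for IND against CTRL. For CTRL against day 4 they ranged from 3 to 6, 5 to 5, 5 to 6, 5 to 8 and 5 to 7, and for the interaction from 0 to 1. Calls over all genes ranged from 348 to 915, 1321 to 4732, 11 to 3768, 417 to 1979 and 905 to 1987 for IND against CTRL. For CTRL against day 4 they ranged from 2312 to 5673, 4506 to 8722, 6247 to 10479, 7129 to 10805 and 6750 to 9865, and for the interaction from 43 to 1016.

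Replicate numbers did not pair the samples: same-numbered libraries had deviations that correlated between -0.107 and 0.0781 over 15 pairs of IND and CTRL and between -0.109 and 0.138 over 15 pairs of CTRL and day 4. With the replicate block the day 6 count for IND against CTRL was 5 (922 of 19133 genes), and the other counts stayed within 1.5 times. The technical replicates, the single clone and the absence of a drug-only group limit what the p-values cover.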
